A study of Mus musculus with 18 samples.

Results

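Nodal signalling was followed in P19 cells, a mouse embryonic carcinoma line, through 10 genes chosen by name: the ligand Nodal, the secreted inhibitors Lefty1 and Lefty2, the co-receptor Tdgf1, the proprotein convertase Pcsk6, the receptors Acvr1b, Acvr2a and Acvr2b, and the transducers Smad2 and Foxh1. They are 10 of the 55450 genes in the deposited table, and each symbol matched 1 row. Poly(A)-selected, stranded mRNA libraries were made from 3 lines with 6 samples each. WT cells have the genotype Dicer (+/+). HetKO cells, Dicer (+/-), carry a frameshift truncation on one allele made with CRISPR. HM cells, Dicer (HM/-), carry that truncation and, on the other allele, the RNase IIIb hotspot mutation E1797G, which the study made in HetKO cells. No treatment was applied in any of these groups. Each edited genotype is 1 derived line, so the genotype and the line cannot be told apart. The HetKO samples have labels of another form than those of WT and HM. Whether they were made in the same batch is not stated.

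Nodal is a TGF-beta family ligand that signals through the type I receptor ALK4, encoded by Acvr1b, and the type II receptors encoded by Acvr2a and Acvr2b, with the GPI-anchored protein Cripto, encoded by Tdgf1, as co-receptor. Activated receptors phosphorylate Smad2, which acts with Smad4 and the forkhead factor Foxh1 on target genes that include Nodal itself and its feedback inhibitors Lefty1 and Lefty2. In the early mouse embryo the pathway maintains the epiblast and patterns mesoderm and endoderm, and embryonic carcinoma cells resemble epiblast.

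Expression was deposited as TPM, the abundance of a gene's transcripts per transcript length scaled to the same total in every sample, so read depth is unknown and the precision was taken from the spread between samples. Neither the labels nor the methods say that the 6 samples of a line are separate cultures, and p-values then measure only the spread between these samples, which may be technical. Dicer1, the edited gene, was at 49.2 to 54.8 TPM in WT, 42.9 to 53.8 TPM in HetKO and 35.4 to 44.2 TPM in HM. The samples of every line were divided into the 3 pairs that were most alike, a division that any 6 samples allow. These alike pairs are replicates 1 and 4, 2 and 5, and 3 and 6 in WT and HetKO, and 1 and 4, 2 and 3, and 5 and 6 in HM. Over the 683 genes that averaged 200 TPM or more, the robust SD of log2 differences was 0.0493 to 0.105 within the 9 pairs and 0.073 to 0.358 between the 36 other combinations of samples of a line. In WT the pairs were not distinct, since replicates 2 and 3 (0.073) and 2 and 6 (0.0763) were about as alike as the pair 1 and 4 (0.0746). Pou5f1, which defines pluripotent cells, was between 1814 and 2244 TPM in all 18 samples, and the summed level of 9 pluripotent embryonic carcinoma markers, most of it Pou5f1, was between 2835 and 3713 TPM. Single markers of this list differed between the lines, with 5 of 9 called for HM against WT, 4 for HetKO against WT and 6 for HM against HetKO. Over all genes tested, 51.4%, 10.2% and 34.6% were called in these comparisons. Nanog had means of 46.9 TPM in WT, 86.3 TPM in HetKO and 18.8 TPM in HM, and Fgf5, a marker of later epiblast, had means of 6.22, 1.90 and 32.8 TPM. The summed level of 4 neural markers was 48.0 to 52.4 TPM in WT, 26.3 to 56.6 TPM in HetKO and 30.1 to 57.8 TPM in HM, that of 7 mesoderm and endoderm markers was 10.3 to 16.1, 8.62 to 14.2 and 5.55 to 13.3 TPM, and that of 5 fibroblast markers was 31.6 to 36.3, 9.94 to 40.2 and 22.2 to 29.98 TPM. The lowest of these neural, mesoderm, endoderm and fibroblast markers were Sox1, Meox1, Hnf4a and Sox7, at or below 0.30 TPM in every sample. Others of the same lists were expressed, with WT means of 40.3 TPM for Tubb3, 22.3 TPM for Thy1, 8.59 TPM for Map2 and 7.6 TPM for Tcf15. Fewer cells of a type and less RNA per cell cannot be told apart in such bulk samples.

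The members differed widely in level. In WT cells the order of mean TPM was Lefty1 with 257, Tdgf1 with 229, Foxh1 with 70.0, Acvr2b with 43.5, Nodal with 39.2, Smad2 with 25.6, Acvr1b with 20.9, Acvr2a with 6.32, Lefty2 with 5.14 and Pcsk6 with 2.65. The ranges of Lefty1 and Tdgf1 overlapped in WT, as did those of Acvr2b, Nodal and Smad2 taken in neighbouring steps and those of Acvr2a, Lefty2 and Pcsk6, and the other neighbours in this order did not overlap. Tdgf1 had the highest mean in HetKO with 207 TPM and in HM with 232 TPM, and only in HM did its range stand clear of that of Lefty1. Lefty2 had the lowest mean in both edited lines.

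**Figure D1:**
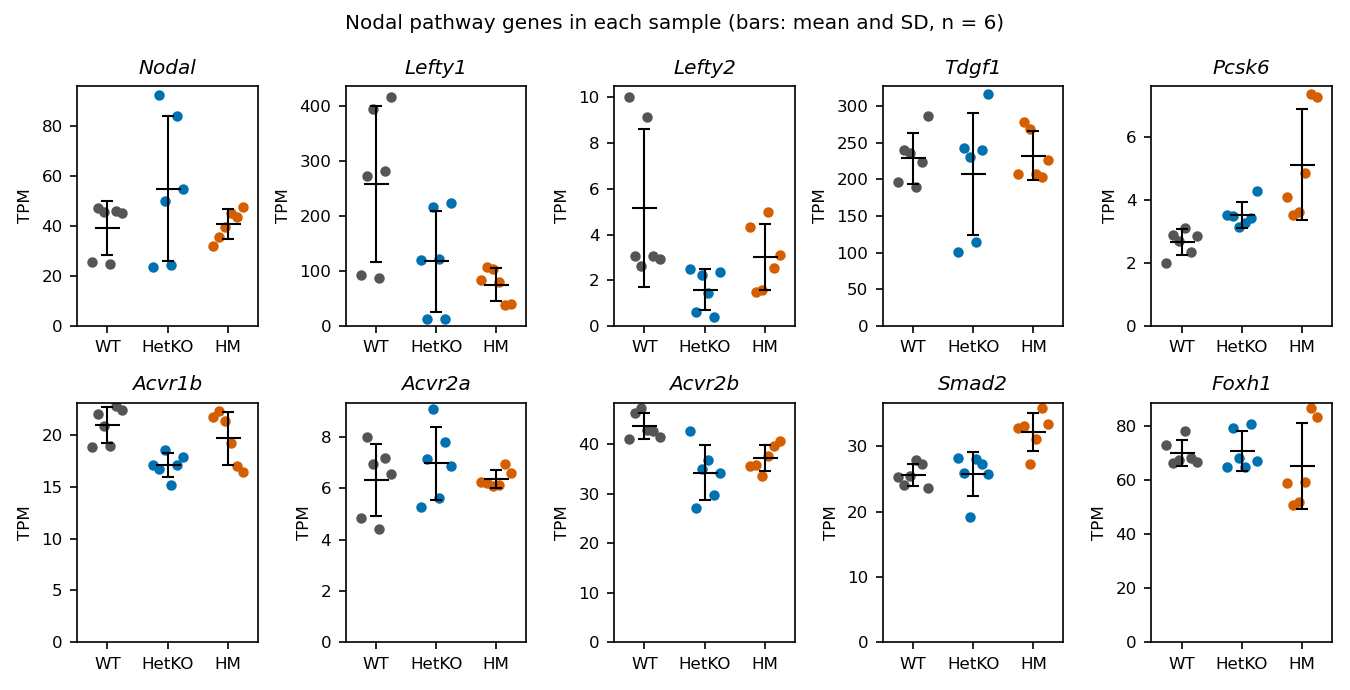
TPM of the 10 Nodal pathway genes in the 18 samples, with 1 panel per gene, lines on the x axis and TPM from 0 on the y axis. Points are samples in order of replicate number, and bars give the mean and SD of 6 samples. Lefty1 in WT and Nodal, Lefty1 and Tdgf1 in HetKO form separate levels within a line, and all HM values of Pcsk6 lie above all WT values.

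Nodal (ENSMUSG00000037171.6, plus strand of chromosome 10, 61417972 to 61425338 in GRCm38) encodes the ligand. Its TPM had a lowest value of 24.9, a median of 45.5 and a highest value of 47.4 in WT. The same 3 values were 23.6, 52.5 and 92.7 TPM in HetKO, and 32.1, 41.7 and 47.8 TPM in HM. The lines overlapped throughout, and the lowest values of WT and HetKO both came from replicates 1 and 4 while the highest of HetKO came from replicates 2 and 5. The mean was 39.2 ± 10.8 TPM in WT (SD, n = 6), 55 ± 29.0 TPM in HetKO (SD, n = 6) and 40.7 ± 6.00 TPM in HM (SD, n = 6). Differences are given here as differences in log2(TPM + 1), which understate changes of low genes, with the standard error (SE) and the Benjamini-Hochberg adjusted p over all genes tested by limma. Nodal differed by 0.09 between HM and WT (SE 0.18, limma adjusted p = 0.688), with a 95% interval of -0.29 to 0.48. In HetKO it differed from WT by 0.35 (SE 0.34, limma adjusted p = 0.526). The HetKO difference was -0.08 without replicates 2 and 5. Between HM and HetKO it was -0.25 (limma adjusted p = 0.548), and 0.18 without those samples. None of the 3 Nodal differences was larger than the spread between samples.

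Lefty1 (ENSMUSG00000038793.8, plus strand of chromosome 1, 180935022 to 180938400 in GRCm38) and Lefty2 (ENSMUSG00000066652.5, plus strand of chromosome 1, 180893108 to 180899103) encode secreted inhibitors that bind Nodal and its receptor complex. They are neighbours in the same orientation with 35918 bases between them, and their coding sequences are identical at 1017 of 1107 positions, or 91.9%. Of the 50-base windows of the annotated transcripts, 17.9% of those of Lefty1 and 11.6% of those of Lefty2 are shared between them, so reads there can be divided between the genes only by estimation.

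Lefty1 was the member with the largest difference between HM and WT. Its TPM had a lowest value of 87.9, a median of 277 and a highest value of 416 in WT. In HetKO these were 12.7, 120.4 and 222 TPM. In HM they were 37.8, 81.7 and 106 TPM. WT replicates 1 and 4 were low with 91.6 and 87.9 TPM and lay within the HM range, and the other 4 WT samples lay above every HM and HetKO sample. HetKO replicates 2 and 5 stood far below the rest with 12.9 and 12.7 TPM, and HM replicates 5 and 6 were the lowest of HM with 37.8 and 39.4 TPM. The mean was 257 ± 142 TPM in WT (SD, n = 6), 117 ± 92.2 TPM in HetKO (SD, n = 6) and 74.9 ± 29.9 TPM in HM (SD, n = 6).

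Lefty1 was lower in HM than in WT by 1.63 on the log2 scale, -1.63 with a SE of 0.43 and a 95% interval of -2.56 to -0.70 (limma adjusted p = 0.00694), a 3.10-fold difference. This call was lost with the mean of each alike pair as 1 replicate (limma adjusted p = 0.0813) and when all 3 lines shared 1 estimate of the spread (limma adjusted p = 0.0536), with the difference at -1.63 in both. In HetKO the difference from WT was of like size, -1.60, but its SE was 0.77 and it did not pass (limma adjusted p = 0.195). That difference was -0.41 without HetKO replicates 2 and 5. Between HM and HetKO Lefty1 differed by -0.03, with a 95% interval of -1.58 to 1.52 (limma adjusted p = 0.979). Without HetKO replicates 2 and 5, HM was lower than HetKO by 1.22 on the log2 scale (limma adjusted p = 0.0125), so 1 pair of samples decided that call. With Lefty1 and Lefty2 summed, the difference was -1.62 for HM against WT, -1.63 for HetKO against WT and 0.005 for HM against HetKO.

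Lefty2 was expressed far below Lefty1. Its lowest, median and highest TPM were 2.64, 3.05 and 10.02 in WT. In HetKO they were 0.40, 1.84 and 2.47 TPM. In HM they were 1.48, 2.82 and 5.00 TPM. All HetKO samples were below all WT samples, and WT replicates 1 and 4, low in Lefty1, were the high Lefty2 samples with 10.02 and 9.16 TPM. HetKO replicates 2 and 5 were the lowest for both genes. Lefty2 differed by -1.16 between HetKO and WT (SE 0.35, limma adjusted p = 0.0506), just outside the threshold of 0.05. It was past the threshold with the replicate number as a block (limma adjusted p = 0.0404) and in a fit of all 3 lines (limma adjusted p = 0.0339). Between HM and WT it differed by -0.53 (limma adjusted p = 0.208), and the replicate block gave a limma adjusted p of 0.0258. Between HM and HetKO it differed by 0.64 (limma adjusted p = 0.109), and without HM replicates 2 and 3 by 0.93 (limma adjusted p = 0.0319).

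The balance of inhibitor to ligand varied more within HetKO than within the other lines. The ratio of Lefty1 to Nodal TPM had a lowest value of 3.54, a median of 5.94 and a highest value of 9.19 in WT. It was 0.139, 4.17 and 5.04 in HetKO. It was 0.823, 2.18 and 2.96 in HM, and all 6 HM ratios lay below all 6 WT ratios. Over the 18 samples, which share the alike pairs and the 3 lines, Pearson's r of log2(TPM + 1) between Nodal and Lefty1 was -0.37, that between Nodal and Lefty2 was -0.62, and that between Lefty1 and Lefty2 was 0.34. These are descriptions of samples that are not independent.

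**Figure D2:**
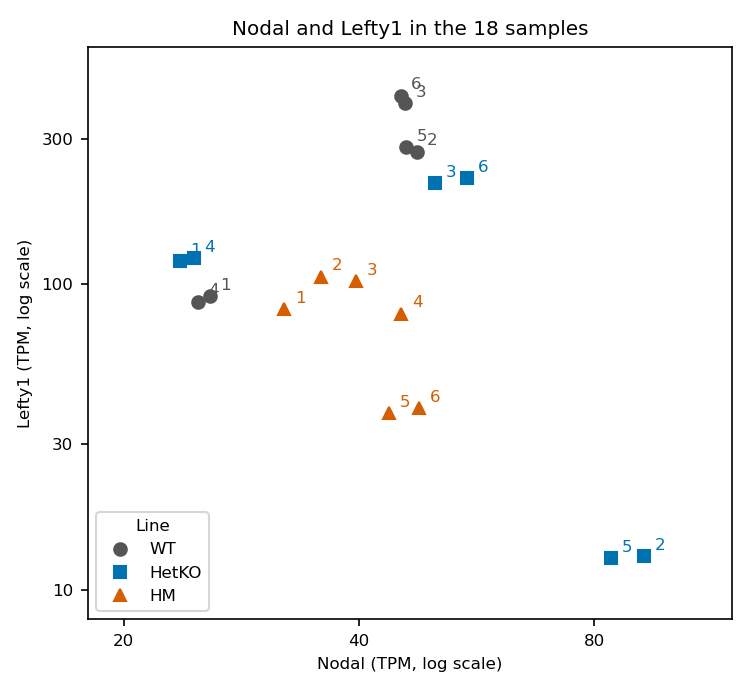
Lefty1 against Nodal in the 18 samples, both in TPM on log axes, with a symbol per line and the replicate number beside each point. HetKO replicates 2 and 5 lie apart with the highest Nodal (92.7 and 84.1 TPM) and the lowest Lefty1 (12.9 and 12.7 TPM), and alike samples of a line lie next to each other.

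HetKO replicates 2 and 5 also held high levels of genes that Nodal and activin signals are known to raise. T, which encodes the mesoderm factor Brachyury, was at 110.5 and 66.2 TPM there and at 0.94 to 9.13 TPM in the other 4 HetKO samples. Eomes, a T-box factor of mesendoderm, was at 80.8 and 67.9 TPM there and at 7.02 to 15.5 TPM in the others. Fst, which encodes the activin-binding protein follistatin, was at 204 and 185 TPM there and at 3.91 to 14.7 TPM in the others. The summed level of the 5 fibroblast markers was 9.94 and 10.9 TPM in these samples and 37.2 to 40.2 TPM in the other HetKO samples, and that of the 4 neural markers was 27.05 and 26.3 TPM against 36.05 to 56.6 TPM. T, Eomes and Fst were named for these samples after their values were seen, and the part of this pair of samples in other results was not tested beyond the values without it.

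Tdgf1 (ENSMUSG00000032494.12, minus strand of chromosome 9, 110939603 to 110946158 in GRCm38) encodes the Nodal co-receptor Cripto. Its lowest, median and highest TPM were 189.7, 229 and 286 in WT. In HetKO they were 101, 235 and 316 TPM. In HM they were 203, 217 and 279 TPM. The lines overlapped, and HetKO replicates 1 and 4 stood apart with 101 and 114 TPM. Tdgf1 differed by 0.02 between HM and WT (SE 0.11, 95% interval -0.22 to 0.26, limma adjusted p = 0.876). It differed by -0.24 between HetKO and WT (limma adjusted p = 0.553) and by 0.26 for HM against HetKO (limma adjusted p = 0.433). The level is uncertain, because the processed pseudogene Tdgf1-ps1 matches Tdgf1 at 506 of 512 aligned positions, 12.5% of the 50-base windows of Tdgf1 are shared with it, and it was listed at mean levels of 120 TPM in WT, 104 TPM in HetKO and 108 TPM in HM. With both summed, HM differed from WT by -0.03 (limma adjusted p = 0.820).

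Pcsk6 (ENSMUSG00000030513.14, plus strand of chromosome 7, 65861734 to 66050386 in GRCm38) encodes PACE4, a convertase that cleaves the Nodal precursor. Its lowest, median and highest TPM were 1.98, 2.78 and 3.12 in WT. In HetKO they were 3.13, 3.46 and 4.29 TPM. In HM they were 3.53, 4.46 and 7.34 TPM. All HetKO and all HM samples lay above all WT samples, and HM replicates 5 and 6 were the highest with 7.34 and 7.27 TPM. Pcsk6 was higher in HM than in WT by 0.71 (SE 0.17, limma adjusted p = 0.00409), a 1.63-fold difference, and the pair means gave a limma adjusted p of 0.0684. Against WT, HetKO differed by 0.31 and did not pass (limma adjusted p = 0.0823), although it passed with samples centred on their median (limma adjusted p = 0.0437) and after quantile normalization (limma adjusted p = 0.0195). Between HM and HetKO it differed by 0.39 with overlapping samples (limma adjusted p = 0.0868), and by 0.58 without HM replicates 2 and 3 (limma adjusted p = 0.0179). The same-strand model gene Gm45213 overlaps Pcsk6 and shares 2.46% of its 50-base windows.

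The receptor genes moved little. Acvr1b (ENSMUSG00000000532.11, plus strand of chromosome 15, 101174067 to 101213684 in GRCm38), which encodes the type I receptor ALK4, had lowest, median and highest TPM of 18.8, 21.4 and 22.7 in WT. These were 15.1, 17.1 and 18.5 TPM in HetKO. They were 16.4, 20.2 and 22.3 TPM in HM. Every HetKO sample lay below every WT sample, and HM overlapped both. Acvr1b was lower in HetKO than in WT by 0.28, at -0.28 with a SE of 0.07 (limma adjusted p = 0.0289), a 1.21-fold difference. The call was lost without HetKO replicates 2 and 5 (limma adjusted p = 0.0621) and with the pair means (limma adjusted p = 0.481). Between HM and WT it differed by -0.09 (limma adjusted p = 0.405), with the sign reversed by both other scalings, and between HM and HetKO by 0.18 (limma adjusted p = 0.129), which passed with samples centred on their median (limma adjusted p = 0.0145) and after quantile normalization (limma adjusted p = 0.0163).

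Acvr2b (ENSMUSG00000061393.14, plus strand of chromosome 9, 119402118 to 119434995 in GRCm38), the more abundant of the type II receptors measured, had lowest, median and highest TPM of 40.9, 42.7 and 47.3 in WT. These were 27.1, 34.5 and 42.7 TPM in HetKO. They were 33.6, 36.6 and 40.6 TPM in HM. The highest HM sample was below the lowest WT sample, and in HetKO only replicate 1, with 42.7 TPM, reached the WT range. Acvr2b was lower in HM than in WT by 0.23, at -0.23 with a SE of 0.06 (limma adjusted p = 0.00721), but the difference was -0.05 with samples centred on their median (limma adjusted p = 0.567), and the pair means gave a limma adjusted p of 0.112. It was lower in HetKO than in WT by 0.35, at -0.35 with a SE of 0.09 (limma adjusted p = 0.0353). This second call was lost under 5 alternatives, with adjusted p of 0.0523 without a filter on low TPM, 0.0929 with an unequal-variance test, 0.0726 with the replicate block, 0.445 with the pair means and 0.0826 without HetKO replicates 2 and 5, the others from limma. Acvr2b differed by 0.12 between HM and HetKO (limma adjusted p = 0.349).

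Acvr2a (ENSMUSG00000052155.5, plus strand of chromosome 2, 48814109 to 48903269 in GRCm38), the other type II receptor, had lowest, median and highest TPM of 4.41, 6.75 and 7.98 in WT. These were 5.27, 7.0 and 9.10 TPM in HetKO. They were 6.08, 6.22 and 6.93 TPM in HM. The 3 lines overlapped, and replicates 1 and 4 of WT and HetKO were the lowest of their lines, as for Nodal. Acvr2a differed by 0.03 for HM against WT, 0.13 for HetKO against WT and -0.10 for HM against HetKO, with adjusted p of 0.849, 0.608 and 0.548 from limma. The genes Orc4 and Gm47320 overlap Acvr2a and Acvr2b on the opposite strand, and it is not stated whether counting used the strand. Over the 18 samples the Pearson's r of Acvr2a with Nodal was 0.76, the highest of the 9 members compared with Nodal.

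Sequence matches to miRNA seeds were not used to choose the members. The study concerns miRNAs of the 5p arm and passenger miRNAs of the 3p arm, and a miRNA pairs with its targets mainly through its seed, bases 2 to 8. Matches were searched for the seeds of 6 of the 5p-miRNAs and 4 of the passenger 3p-miRNAs in the study. The guide strands miR-92a-3p and miR-19b-3p were added. Other passenger strands that the study followed, among them miR-26a-2-3p and miR-30a-3p, were not searched. The search used the sense strand of the longest annotated 3′ UTR of each gene. Acvr1b, Acvr2a and Acvr2b each hold at least 1 match to the seed that miR-15b-5p and miR-16-5p share, whose target letters TGCTGCT occur in 20.3% of the 21039 genes with such a UTR. These receptor UTRs have 2822, 3481 and 1534 bases. A longer UTR has more places for a match, and the share over all genes was not adjusted for length. The match is not particular to receptors, since Smad2 and 18 of the 46 other pathway genes described later hold it too, among them Smad3, Smad4, Smad7, Ski and Tgfbr1. The mature sequences below are from RefSeq, with the seed in capitals, and the sites are from the GENCODE transcripts on GRCm38, with the match in capitals.
miR-15b-5p: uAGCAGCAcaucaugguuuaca
miR-16-5p: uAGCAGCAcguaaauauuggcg
Acvr1b, chr15:101211529-101211551, plus strand: catactgtctctgagTGCTGCTg
Acvr1b, chr15:101211532-101211554, plus strand: actgtctctgagtgcTGCTGCTt
Acvr2a, chr2:48900272-48900294, plus strand: tgtgaatgtgtagtgTGCTGCTg
Acvr2a, chr2:48902273-48902295, plus strand: gatacccaccagaacTGCTGCTc
Acvr2b, chr9:119434665-119434687, plus strand: ggtgaatgttcttaaTGCTGCTg

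The 2 matches in Acvr1b overlap each other. The seed shared by the RefSeq sequences of miR-17-3p and miR-20b-3p, whose target letters ACTGCAG occur in 13.7% of genes, matched Acvr1b at 2 positions and Pcsk6 at 1. These sites are shown because both genes hold the same letters. Any link between these matches and the levels of the 2 genes was not tested. The probe that the study lists for miR-20b-3p is complementary to a sequence that differs from the RefSeq one, in the seed too, so these matches hold for miR-20b-3p only as RefSeq gives it.
miR-17-3p: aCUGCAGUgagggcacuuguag
miR-20b-3p: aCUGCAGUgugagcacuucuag
Acvr1b, chr15:101210890-101210912, plus strand: tgggcagtgaggatgACTGCAGc
Acvr1b, chr15:101211930-101211952, plus strand: ccccagattctgcaaACTGCAGt
Pcsk6, chr7:66049128-66049150, plus strand: ccagagctgggttctACTGCAGc

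Smad2, with the longest such UTR of the members at 6233 bases, held 3 matches to 5p seeds, 1 of them to the seed of miR-15b-5p and miR-16-5p, and 2 to passenger 3p seeds. Lefty2 held 1 match to a passenger 3p seed and 2 to the guide 3p seeds, Acvr2a held 1 further match to a passenger 3p seed, and Acvr1b held 1 to the seed of the guide strand miR-19b-3p. No match to any of these seeds was present in the longest annotated 3′ UTR of Nodal, Lefty1, Tdgf1 or Foxh1, which have 702, 425, 1101 and 82 bases. A match is a description of letters and not of binding.

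Smad2 (ENSMUSG00000024563.16, plus strand of chromosome 18, 76241580 to 76310963 in GRCm38) encodes the receptor-activated transducer of the pathway and was the member with a call in 2 comparisons that include HM. Its lowest, median and highest TPM were 23.6, 25.4 and 27.9 in WT. These were 19.2, 26.7 and 28.2 TPM in HetKO. They were 27.2, 32.96 and 35.9 TPM in HM. Of the HM samples only replicate 3, with 27.2 TPM, reached the range of WT and HetKO. Smad2 was higher in HM than in WT by 0.32 (SE 0.07, limma adjusted p = 0.00234), a 1.25-fold difference, and higher in HM than in HetKO by 0.32 (SE 0.10, limma adjusted p = 0.0251). With the pair means the adjusted p values were 0.0534 and 0.200 from limma. HetKO and WT differed by 0.00, with a 95% interval of -0.20 to 0.19 (limma adjusted p = 0.990).

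Foxh1 (ENSMUSG00000033837.5, minus strand of chromosome 15, 76668225 to 76669948 in GRCm38) encodes the forkhead partner of Smad2 and Smad4. Its lowest, median and highest TPM were 66.4, 67.8 and 78.1 in WT. These were 64.7, 67.6 and 80.9 TPM in HetKO. They were 50.7, 59.2 and 86.8 TPM in HM. HM replicates 5 and 6 lay above every WT sample and the other 4 HM samples lay below every WT sample. HM differed from WT by -0.13 (SE 0.13, limma adjusted p = 0.413), and the sign changed with samples centred on their median and without HM replicates 2 and 3. It was 0.01 for HetKO against WT and -0.15 for HM against HetKO, with adjusted p of 0.921 and 0.427 from limma.

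Across the members, 4 of 10 passed the test between HM and WT, against 51.4% of the 14043 genes tested. Pcsk6 and Smad2 were higher in HM, where 19.4% of all genes were called higher, and Lefty1 and Acvr2b were lower, where 32.0% were called lower. The HM and WT samples of 2 members, Acvr2b and Pcsk6, did not overlap, as for 28.5% of all genes. Between HetKO and WT, Acvr1b and Acvr2b passed, both lower, against 10.2% of 13999 genes called, 6.44% called lower and 3.71% called higher, and the samples of Lefty2, Acvr1b and Pcsk6 did not overlap, as for 8.21% of genes. Between HM and HetKO, Smad2 alone passed, higher in HM, against 34.6% of 13762 genes called, 14.0% called higher and 20.6% called lower, and every member overlapped between the lines, while 15.5% of genes did not. The median difference of the 10 members was -0.03 for HM against WT, -0.12 for HetKO against WT and 0.15 for HM against HetKO, beside -0.09, -0.03 and -0.05 over all genes. With samples centred on their median, Lefty1 differed by -1.45 between HM and WT, Pcsk6 by 0.88, Smad2 by 0.50 and Acvr2b by -0.05, on a scale where the median over all genes was 0.08. The comparisons of HM and HetKO with WT share the WT samples. With the pair means as replicates, limma called 0 members in each comparison, with 4, 2 and 1 members at an unadjusted p under 0.05, and the unequal-variance test over single samples called 4, 1 and 1.

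**Figure D3:**
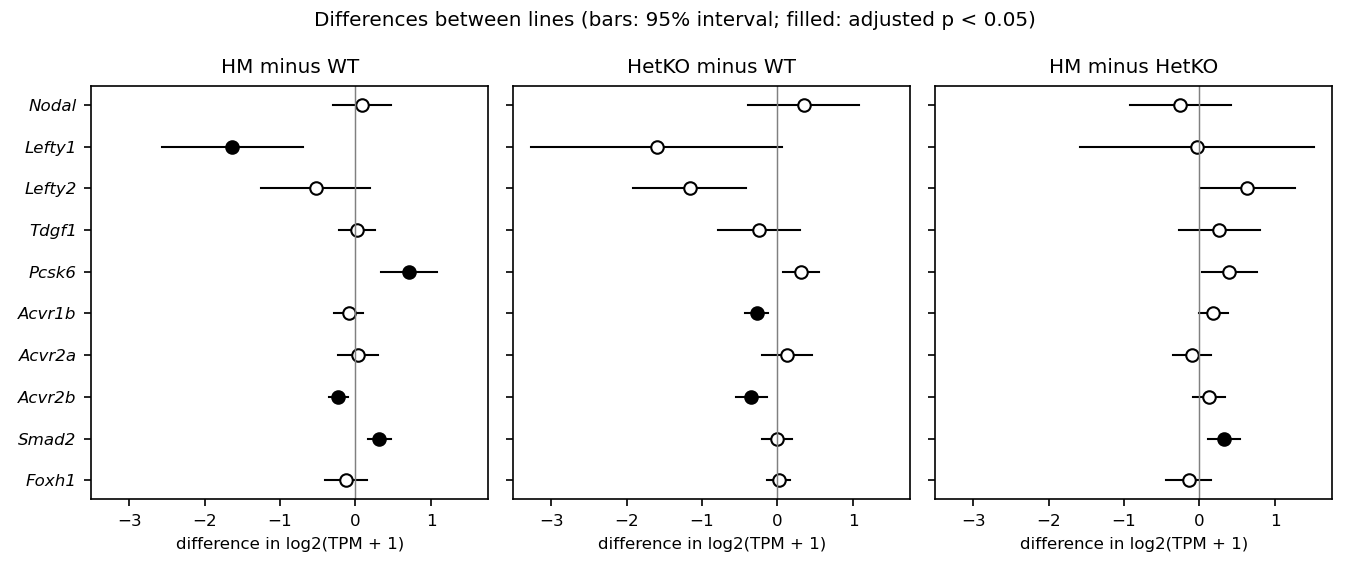
Differences between lines for the 10 members on the x axis, as differences in log2(TPM + 1), with 1 panel per comparison, 6 samples per line and bars for the 95% interval. Filled points have an adjusted p under 0.05 from limma. Lefty1 has the largest difference between HM and WT at -1.63, and Smad2 is the filled point between HM and HetKO at 0.32.

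The members also differed in how much they varied within a line. The highest over the lowest TPM of Lefty1 was 4.73 in WT, 17.6 in HetKO and 2.80 in HM. Among genes that averaged 5 TPM or more over the 18 samples, 0.625% had a larger ratio than Lefty1 in WT, 0.283% in HetKO and 5.06% in HM. For Nodal the ratios were 1.91, 3.93 and 1.49, with 7.02%, 2.49% and 40.2% of genes above it. For Tdgf1 they were 1.51, 3.12 and 1.38. For Acvr1b, Acvr2b, Smad2 and Foxh1 they lay between 1.16 and 1.71 in all lines, beside a median over genes of 1.29 in WT, 1.44 in HetKO and 1.41 in HM. Lefty2 and Pcsk6 averaged less than 5 TPM over the 18 samples, and both are left out of the plot of spread. The spread of Lefty1 lay between the pairs of alike samples. Its 2 samples differed by at most 1.06-fold within any pair, while the pair means differed by 4.51-fold in WT, 17.1-fold in HetKO and 2.70-fold in HM.

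**Figure D4:**
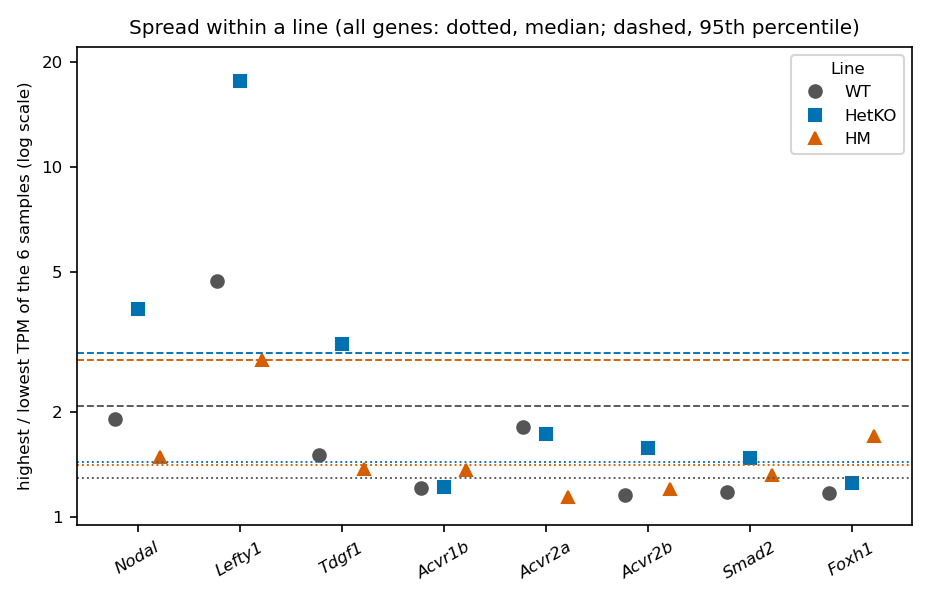
Highest over lowest TPM of the 6 samples of each line, on a log axis, for the 8 members that averaged 5 TPM or more in each of the 3 lines, with lines for the median (dotted) and the 95th percentile (dashed) of all genes that averaged 5 TPM or more in the same line. Lefty1 reaches 17.6 in HetKO, and Acvr1b, Acvr2b and Smad2 stay below 1.6 in every line.

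For the 4 upstream members, the genes with the most similar pattern over the 18 samples were listed by Pearson's r of log2(TPM + 1) among 9646 genes that averaged 5 TPM or more. Nodal was followed by Smyd2 at 0.92, Nsmaf at 0.91, Tnfrsf19 at 0.90, Wdr92 at 0.90 and Sesn2 at 0.89. Lefty1 was followed by Dmxl2 at 0.97, Appl2 at 0.96, Pcmtd1 at 0.96, Map1lc3b at 0.96 and Trp53inp2 at 0.96. Lefty2 was followed by Glud1 at 0.94, Epb41l2 at 0.93, Igf2 at 0.92, Dppa5a at 0.92 and Dppa4 at 0.92. Tdgf1 was followed by its pseudogene Tdgf1-ps1 at 0.96, and then by Chac1 at 0.88, Kyat3 at 0.87, Taf1b at 0.86 and Gpx4 at 0.86. The samples share lines and alike pairs, so these values describe a shared pattern and not independent agreement.

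The rest of the pathway was read from 46 genes in 6 lists. Between HM and WT, 19 of the 35 measured genes passed, 12 higher and 7 lower in HM, with a median difference of 0.01. For HetKO against WT 4 of 34 passed, 1 higher and 3 lower, and for HM against HetKO 9 of 35, 7 higher and 2 lower. The shares of 54.3%, 11.8% and 25.7% stand beside 51.4%, 10.2% and 34.6% over all genes. With the pair means 7, 0 and 1 passed, and the unequal-variance test called 12, 3 and 10. Without HetKO replicates 2 and 5, 3 passed for HetKO against WT and 15 for HM against HetKO. With samples centred on their median, 14 were higher and 2 lower in HM than in WT. Pcsk7, Furin, Tgfb3, Fst, Drap1, Smad4, Nedd4l, Eomes, Sox17, Gata6, Map2 and Lin28a among the genes named next overlap genes on the opposite strand.

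Among 9 other ligands, 5 were measured between HM and WT. Tgfb1 and Gdf3 were higher in HM, where 19.4% of all genes were called higher. Tgfb1, which encodes TGF-beta 1, had a mean of 23.8 TPM in HM, 6.48 TPM in HetKO and 10.9 TPM in WT, and the samples of HM and WT did not overlap. It was higher in HM than in WT by 1.04 (SE 0.14, limma adjusted p = 9.02e-05). It was lower in HetKO than in WT by 0.68, at -0.68 with a SE of 0.13 (limma adjusted p = 0.00566), and the pair means gave a limma adjusted p of 0.270 there. Tgfb3 was the other ligand called between HetKO and WT, and it was lower in HetKO. Of 3 other convertases, 2 were measured between HM and WT. Pcsk7, which encodes a trans-Golgi convertase, was higher in HM with means of 8.24 and 5.74 TPM, by 0.46 (limma adjusted p = 0.00520), with a limma adjusted p of 0.0764 for the pair means, and Furin was lower (limma adjusted p = 0.0450).

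Of 5 other receptors and co-receptors, 3 were measured, and limma called 0 of them in each comparison, with 1, 0 and 2 at an unadjusted p under 0.05. The unequal-variance test called 0, 0 and 1. Among 8 other antagonists, 6 were measured between HM and WT. Fst and Ncln were higher in HM, as were 19.4% of all genes, Ncln with a limma adjusted p of 0.0458. Fst had a mean of 45.3 TPM in HM and 15.6 TPM in WT, without overlap, and was higher by 1.48 (SE 0.24, limma adjusted p = 0.000288). In a fit of all 3 lines the adjusted p was 0.110 from limma. Tmeff1, which encodes a membrane protein that binds Cripto, was lower in HetKO than in WT with means of 67.0 and 88.3 TPM, by 0.40 and without overlap, at -0.40 (SE 0.08, limma adjusted p = 0.00568), and the pair means gave a limma adjusted p of 0.299.

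Among 12 intracellular transducers and brakes, 3 were higher and 6 lower in HM than in WT. Over all genes, 19.4% were called higher and 32.0% lower. Of the 9 calls in this list, the unequal-variance test left 5 and the pair means left 3. With samples centred on their median, 14 genes over the 6 lists were called higher and 2 lower, against 12 and 7 without centring. Smad7, an inhibitory Smad that is itself induced by TGF-beta signals, had a mean of 14.7 TPM in HM and 5.50 TPM in WT, without overlap, and was higher by 1.22 (SE 0.18, limma adjusted p = 0.000188). Trim33, which encodes a Smad-binding ubiquitin ligase, was higher in HM by 0.48 (limma adjusted p = 0.000434) and higher in HetKO than in WT by 0.53 (limma adjusted p = 0.000780), the latter with a limma adjusted p of 0.176 for the pair means. Drap1, a transcriptional corepressor that restrains Nodal autoregulation through Foxh1, had a mean of 73.9 TPM in HM and 106 TPM in WT, without overlap, and was lower by 0.51, at -0.51 (SE 0.06, limma adjusted p = 2.35e-05). Ski was the other gene called higher, close to the threshold (limma adjusted p = 0.0482), and Smurf2 (limma adjusted p = 0.0456), Smad4, Nedd4l, Skil and Smad3 were the others called lower.

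Among 9 target genes, 7 were measured between HM and WT, and T, Eomes, Lhx1 and Mixl1 were higher in HM, where 19.4% of all genes were called higher. The samples of Lhx1 and Mixl1 overlapped, and Mixl1 was close to the threshold (limma adjusted p = 0.042). Their WT means of 0.83 and 0.725 TPM were below the limit of 1 TPM for testing. They entered the test only through HM, with means of 1.62 and 1.32 TPM, and Mixl1 was not tested between HetKO and WT. T had a mean of 24.2 TPM in HM and 5.83 TPM in WT, without overlap, and was higher by 1.80 (SE 0.31, limma adjusted p = 0.000418). Eomes had a mean of 18.5 TPM in HM and 9.13 TPM in WT, without overlap, and was higher by 0.94 (SE 0.14, limma adjusted p = 0.000145). In a fit of all 3 lines, whose spread includes HetKO replicates 2 and 5, the adjusted p was 0.0676 for T and 0.0987 for Eomes from limma. For HetKO against WT, limma called 0 of 6 measured target genes, with 3 at an unadjusted p under 0.05 and 0 called by the unequal-variance test. Foxa2 and Sox17, which mark definitive endoderm, were below the limit of 1 TPM and were not tested. Cell type markers also differed between HM and WT, where 51.4% of all genes were called. Of the pluripotency markers Fgf5, Utf1, Sox2 and Lin28a were higher in HM, Fgf5 by 2.10 (limma adjusted p = 0.000122), and Nanog was lower, at -1.24 (limma adjusted p = 0.000903). Of 7 mesoderm and endoderm markers 3 were measured, and Tbx6, a factor of paraxial mesoderm, was lower at -1.01 (limma adjusted p = 0.000164), as was Gata6, a factor of primitive endoderm, at -0.83 (limma adjusted p = 0.00625). The HM means of Tbx6 and Gata6, 0.86 and 0.60 TPM, were below the limit of 1 TPM, and both entered the test through WT. Of the 4 neural markers 2 were measured, and Map2 was lower at -1.08 (limma adjusted p = 8.25e-05). Of the 5 fibroblast markers 4 were measured, and Thy1 and Col1a2 were lower. The part of these markers in the differences of the target genes was not tested.

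**Figure D5:**
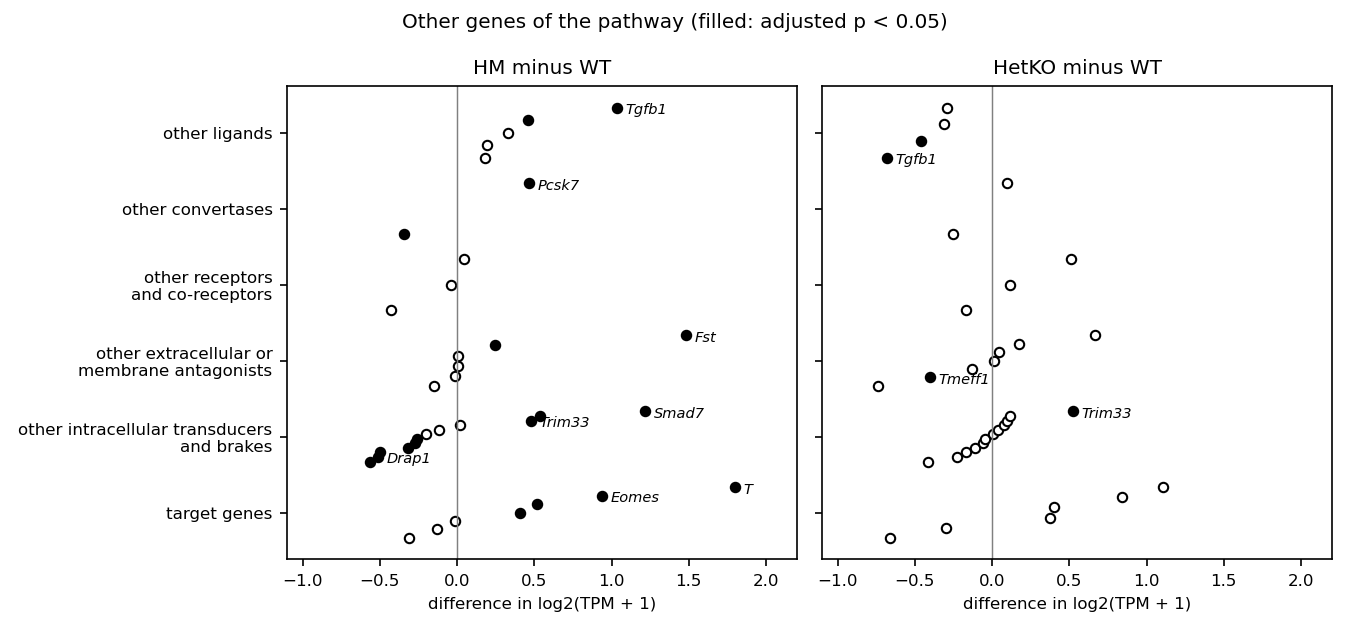
Differences in log2(TPM + 1) on the x axis for the measured genes of 6 lists of other pathway genes, HM against WT on the left and HetKO against WT on the right, 6 samples per line. Filled points have an adjusted p under 0.05 from limma, and the named genes are up to 2 per list and direction among those whose samples do not overlap. T has the largest difference between HM and WT at 1.80, and target genes between HetKO and WT are all open points.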

How the data were processed

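Poly(A)-selected, stranded mRNA libraries of 18 samples, 6 per line, were analysed. The deposited TPM, with 2 decimals for 55450 genes, were made by the authors with BBMerge for merging read pairs and RSEM for quantification. The submitters' processing notes name cutadapt, STAR and mm10, and versions are not given in the sources used here. Groups and replicate numbers came from the sample labels. Positions and 3′ UTRs came from GENCODE on GRCm38, which held all 55450 identifiers.

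For each comparison, genes that averaged 1 TPM or more in its 12 samples entered limma 3.58.1 in R 4.3.3 as log2(TPM + 1), a pseudocount of 1, using a variance trend and Benjamini-Hochberg adjustment over all genes with a threshold of 0.05. Tested on simulated data with 200 genes changed by 1 on the log2 scale, it recovered 175 of them among 14043 genes for HM and WT, 164 among 13999 for HetKO and WT and 159 among 13762 for HM and HetKO, with 7, 6 and 7 false calls. The simulated samples were independent, with the same spread in both lines of a comparison. They held no alike pairs, so these numbers do not give the rate of false calls in the real samples. The other steps used Python 3.11.15, pandas 2.3.3 and numpy 2.4.6. Alike pairs were the 3 pairs per line with the smallest summed robust SD of log2 differences.

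The 10 members and the pathway and marker lists were chosen with earlier results of these data known. Named were the members and, per pathway list, up to 2 genes called higher and 2 called lower than WT with the largest differences among those without overlap, in HM and in HetKO, and for 4 members the 5 genes with the highest correlation, leaving out model gene names. Seeds were matched in the longest annotated 3′ UTR. Alternatives tried were other filters on low TPM, a pseudocount of 0.1, centred or quantile-normalized samples, a single fit, an unequal-variance test, a 1.5-fold limit, a replicate block, pair means and omitted pairs of samples. Sums with near-identical genes were added after the data were seen. Some planned items, among them a marker in the lists, are not reported here.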

Additional observations from a re-analysis of the deposited data

Results flagged for a closer look

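In 2 of the 30 groups formed by a member and a line, 1 sample stood far from the other 5, where chance gives about 1 in 20 groups, or 1.5. Smad2 in HetKO replicate 3 was 19.2 TPM, while the other HetKO samples were between 25.8 and 28.2 TPM, and its gap to the next sample was 0.733 of the range of the group. Pcsk6 in HetKO replicate 6 was 4.29 TPM, while the other HetKO samples were between 3.13 and 3.51 TPM, with a gap of 0.672 of the range. The limit for 6 samples is 0.625. HetKO replicates 2 and 5, which stood apart for Nodal and Lefty1, did not meet this limit, because they were close to each other.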

How the results depend on the processing

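Of all genes, the 1.5-fold limit left 3008, 666 and 2099 calls between HM and WT, HetKO and WT, and HM and HetKO, where 7220, 1421 and 4765 passed, the pair means left 3316, 34 and 417, and the unequal-variance test left 852 between HetKO and WT. Of the members, the 1.5-fold limit left 2, 0 and 0 calls, where 4, 2 and 1 passed, and the pair means 0, 0 and 0, which have 3 values per line. Between HetKO and WT, 1 member passed without a filter on low TPM, 1 with the unequal-variance test and 0 without HetKO replicates 2 and 5, with 4 at an unadjusted p under 0.05. Between HM and HetKO, 3 passed with centred samples, 2 after quantile normalization, 2 in the single fit, 3 without HM replicates 2 and 3 and 2 without HetKO replicates 2 and 5. The cause of these moves was not tested. Centring moved the median of all genes by 0.18 for HM against WT and 0.12 for HM against HetKO, and quantile normalization by 0.11 between HM and WT. Of the genes called between HM and WT, 37.7% were higher, 61.0% with centred samples and 51.1% after quantile normalization. For HetKO and WT these shares were 36.5%, 50.7% and 48.1%, and for HM and HetKO 40.4%, 60.9% and 49.3%.

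Differences of members that changed sign did not pass the test on either side. Centred samples gave 0.0857 for Acvr1b and 0.0466 for Foxh1 in HM against WT, 0.053 for Smad2 in HetKO against WT, and 0.0849 for Lefty1 and 0.0202 for Acvr2a in HM against HetKO. Quantile normalization gave -0.110 for Tdgf1 and 0.0527 for Acvr1b in HM against WT, 0.0182 for Smad2 and -0.0068 for Foxh1 in HetKO against WT, and 0.0166 for Acvr2a in HM against HetKO. Without HM replicates 2 and 3, Tdgf1 was -0.102 and Foxh1 0.0219 in HM against WT, and Foxh1 0.0084 in HM against HetKO. Without HetKO replicates 2 and 5, Nodal was -0.0835 and Foxh1 -0.0768 in HetKO against WT, and Nodal 0.175 in HM against HetKO. The pair means gave 0.0013 for Smad2 in HetKO against WT. Summing gave -0.0326 for Tdgf1 in HM against WT and 0.0051 for Lefty1 in HM against HetKO.

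With the replicate number as a block, 6889, 1206 and 4200 genes passed. Members called under the block were the same except for Lefty2, which passed in both comparisons with WT, and Acvr2b, which no longer passed in HetKO against WT. Deviations of same-numbered samples had mean correlations of 0.003, 0.06 and 0.02, not all over 0.1. Of 12 samples, 2, 7 and 2 correlated best with their own number. For HetKO and WT every same-numbered correlation was positive, from 0.023 to 0.120. Whether samples of the same number share a culture or a batch cannot be told from these values. No depth was given, so the counting error behind low TPM such as those of Lefty2 and Pcsk6 is unknown.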
